A study of Homo sapiens with 10 samples.

Results

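H3K9ac was compared between the cells after 7 days and after 2 days of doxycycline, the pair of H3K9ac libraries closest in size. The members are the island lists of these 2 libraries on chromosomes 1 to 22, with 107516 islands at 2 days and 94807 at 7 days, of 778774 islands in the 9 lists of the series. An island is a stretch of enriched 200-bp windows called by the authors against a control library. Joining islands of the 2 lists that overlapped by at least 1 bp gave 119675 merged regions. For each region and time, H3K9ac reads were added up and divided by the relative size of the library.

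The series profiled H3K9ac, H3K27ac and H4K16ac by CUT&RUN in IHA cells, a human fetal astrocyte line immortalized with SV40, using 200000 cells per reaction. Cells without doxycycline are labelled WT IDH1. Cells given 1 µg/ml doxycycline for 2 or 7 days are labelled IDH1-R132H. The control for all 9 lists was a single library of WT IDH1 cells, titled IgG control antibody (2nd HRP) and called the HRP library here. Each mark and time has 1 library, so a difference between the 2 times has no replicate check and no p-value is given. No library came from cells that received doxycycline without IDH1-R132H, so induction, doxycycline and time in culture cannot be told apart. The labels do not name the vector or promoter that carries the inducible gene, nor say whether the line is a single clone. The files hold positions and no gene names, so astrocyte markers such as GFAP and SOX9 were not checked, and regions are given by hg19 position and Giemsa band.

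Acetylation of lysine 9 on histone H3 is placed by acetyltransferases such as GCN5 and PCAF and removed by histone deacetylases, and it is found mainly at active promoters and enhancers. H3K27ac, placed by p300 and CBP, marks many of the same elements, while H4K16ac, placed mostly by MOF, spreads more widely over open chromatin. IDH1-R132H turns 2-oxoglutarate into 2-hydroxyglutarate, which inhibits 2-oxoglutarate-dependent demethylases of histones and DNA. In CUT&RUN an antibody tethers a nuclease to the mark, and the released fragments are sequenced.

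Relative to the HRP library, the H3K9ac library measured 4.17 at 2 days and 4.88 at 7 days, a ratio of 1.17. Islands held 7844829 reads at 2 days and 9489305 at 7 days, a ratio of 1.21. H3K9ac islands were fewer and longer at 7 days. Their median length was 2400 bp at 2 days (quartiles 1600 and 3800) and 3200 bp at 7 days (2200 and 4800), and they covered 325.5 Mb and 371.6 Mb, a ratio of 1.14. Per unit of library size, the reads in islands were 1.03 times as many at 7 days. Reads per kb of island, divided by library size, were 5.78 at 2 days and 5.23 at 7 days. Thus nearly the same scaled number of reads was spread over more called sequence at 7 days.

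Of the covered sequence, 200.5 Mb was called at both times, 61.6% of the 2-day and 54.0% of the 7-day total. Flanks and gaps inside shared regions added 56.9 Mb that was called at 2 days only and 99.6 Mb that was called at 7 days only. Regions with an island in a single list covered 68.1 Mb at 2 days and 71.4 Mb at 7 days, which differ little. The extra length at 7 days therefore lay mostly inside shared regions. In 7819 of 61037 shared regions a single 7-day island spanned 2 or more 2-day islands, and in 3362 a single 2-day island spanned 2 or more 7-day islands.

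Most H3K9ac reads lay in regions called at both times. The 61037 shared regions were 51.0% of all regions and held 82.5% of the 2-day and 84.3% of the 7-day island reads. An island at 7 days overlapped 69.8% of the 2-day islands (95% interval 69.5 to 70.03), and an island at 2 days overlapped 72.5% of the 7-day islands (72.2 to 72.7). Islands without a partner were shorter and thinner than those with one. At 2 days the median was 37 reads over 2000 bp without a partner and 62 reads over 2800 bp with one. At 7 days these medians were 51 reads over 2600 bp and 85 reads over 3600 bp.

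Absence from the other list was most frequent among weak regions. Among regions whose 2-day reads predicted 50 to 100 reads at the 7-day library's size, 32.8% had no 7-day island. That share was 6.29% at 100 to 200 predicted reads, 0.314% (28 of 8904) at 200 to 500, and 0 of 967 at 500 or more (upper limit 0.381%). In the other direction the shares were 26.8%, 4.33%, 0.18% (13 of 7232) and 0 of 611 (upper limit 0.602%). With at least 100 reads predicted, 1116 of 27164 regions had no 7-day island and 711 of 23952 had no 2-day island, which are 4.11% (3.88 to 4.35) and 2.97% (2.76 to 3.19). Called against the HRP library, as all islands were, these missing regions had more HRP reads per kb than the shared ones. The values were 2.69 where no 7-day island and 2.5 where no 2-day island was called, against 2.08 at 2 days and 2.09 at 7 days in shared regions with at least 100 reads in either library. An H3K27ac island at 2 days was present in 45.2% of the regions missing at 7 days, in 38.8% of those missing at 2 days and in 78.6% of those shared ones. An H4K16ac island at the same time was present in 66.9%, 73.8% and 78.8%. The missing regions were narrower, with median widths of 5000 and 6600 bp against 7000 bp in those shared ones. They were also thinner, with 4.85 and 4.3 scaled reads per kb, against 5.99 at 2 days and 5.39 at 7 days. The part of width and read density in these differences was not tested.

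In shared regions, summed H3K9ac reads were slightly higher at 7 days, with a wide spread. Over the 54942 shared regions with at least 50 reads in either library, the median log2 ratio of scaled reads was 0.10 (0.095 to 0.106, quartiles -0.25 and 0.49). It was positive in 57.8% of regions. The ratio was at least 2-fold higher in 4919 regions, 8.95% of those compared, and at least 2-fold lower in 2286, which is 4.16%. Taken relative to the median ratio, these shares were 7.11% and 5.42%. The least change counted as 2-fold was 41 reads at 2 days and 96 at 7 days, while a region with 44 and 103 reads fell just short. Regions with many reads lay close to equal at the 2 times. Of the 24149 regions whose larger count was at least 50 and under 100 reads, 8.14% were past 2-fold higher and 4.79% lower. These shares were larger, 12.6% and 5.18%, from 100 to under 200 reads, and smaller, 4.81% and 1.13%, from 200 to under 500. Among 1012 regions from 500 to under 1000 reads 4 were higher and 0 lower, and among 67 with 1000 or more there was 0 in either direction.

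**Figure D1:**
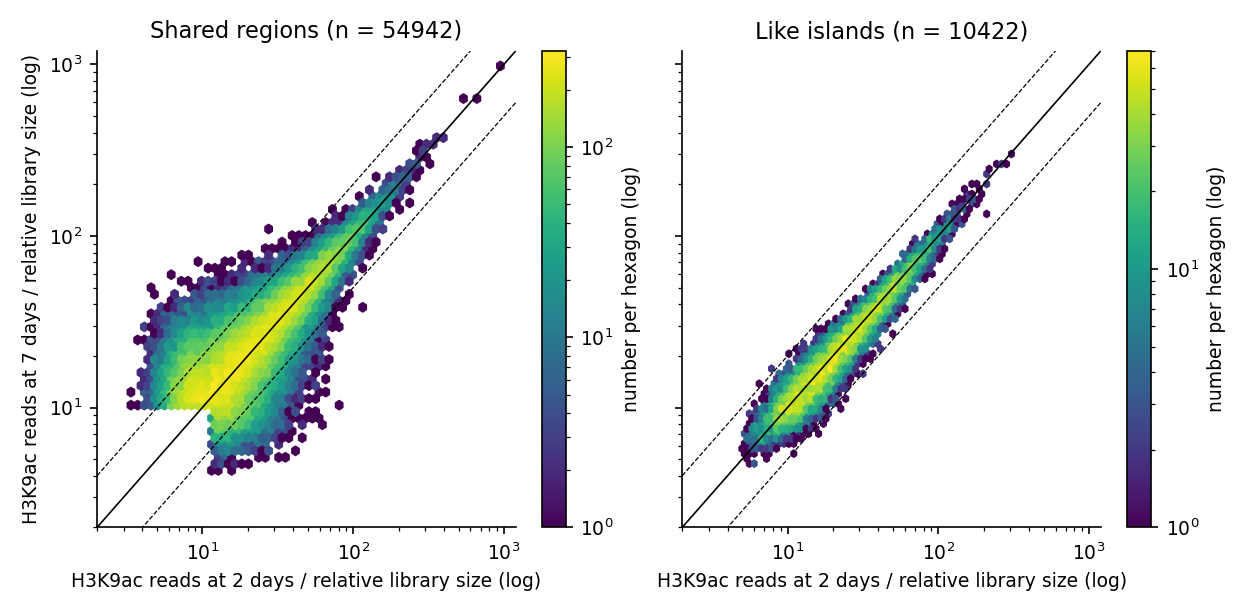
H3K9ac reads divided by relative library size at 2 days (x, log axis) and 7 days (y, log axis), for 54942 shared regions (left) and 10422 pairs of like islands (right). Colour is the number of regions or pairs per hexagon on a log scale, the solid line is equality and the dashed lines are 2-fold; the left cloud is wide at few reads and narrows towards equality, and the right cloud lies almost wholly inside the dashed lines.

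The ratio of summed reads followed the length that had been called. Its Pearson correlation with the log2 ratio of called length was 0.91 over the 54942 regions, so that 82.0% of its variance was shared with length. Both quantities come from the same islands, and reads outside islands are not in the lists. In the 4919 higher regions the median island length was 1600 bp at 2 days and 5200 bp at 7 days, with 35 and 111 reads. In the 2286 lower regions it was 4800 bp and 2000 bp, with 99 and 45 reads. Reads per kb of island moved otherwise. Their median log2 ratio was -0.14 (-0.142 to -0.136) over all 54942 regions, -0.31 in the higher regions and 0.037 in the lower ones. Of the 4919 higher regions 1003, or 20.4%, were also higher per kb. This share was 32.6% in the 47737 regions within 2-fold and 53.85% in the lower ones. A single island at each time made up 91.3% of the higher and 89.9% of the lower regions, so the change was mostly of an island's extent, not of how many islands were joined.

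**Figure D2:**
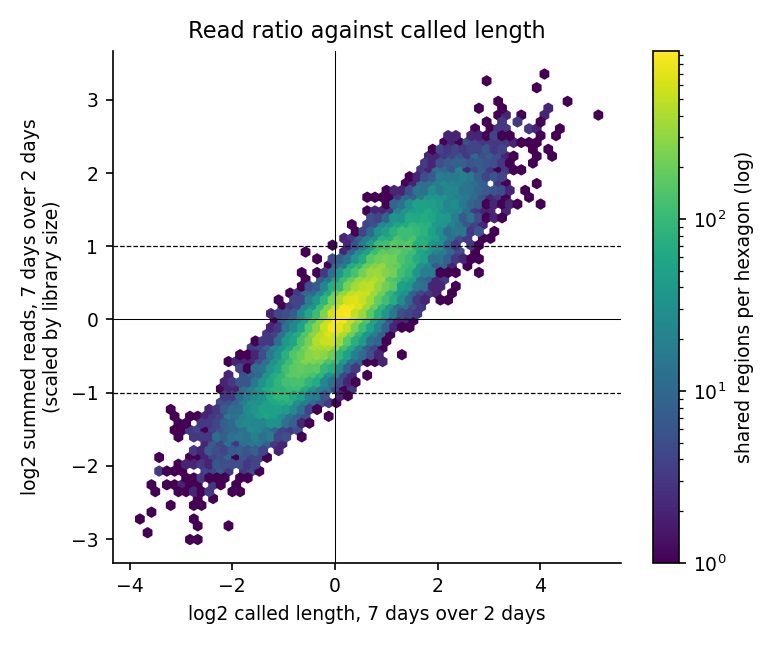
Log2 ratio of scaled H3K9ac reads at 7 days over 2 days (y) against the log2 ratio of called length (x) in 54942 shared regions, with colour for the number of regions per hexagon on a log scale and dashed lines at 2-fold. The regions lie along a band from lower left to upper right, with Pearson correlation 0.91, and those past 2-fold are mostly those whose called length changed the same way.

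Giving the stretches called at only 1 time the density of a thin island in the other list left few large differences. In this alternative, chosen after the data were seen, such stretches were filled with the reads per kb of each list's thinnest islands (5th percentile, 15.6 at 2 days and 16.7 at 7 days). Scaled to library size the fill is 3.75 and 3.41 per kb, against medians of 5.65 and 5.05 in the shared regions compared. A 2-fold ratio can hardly arise with such a fill, so the outcome is largely set in advance. The median log2 ratio became -0.077 (-0.078 to -0.074), 3 regions were at least 2-fold higher and 5 at least 2-fold lower. The true reads in those stretches are not in the lists, and they can be lower than the filled value, so the filled counts are no measurement either.

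Islands that covered nearly the same sequence at both times were compared as pairs. In 10422 pairs, called like islands here, each island covered at least 80% of the other. This choice leaves out sites called at 1 time only and sites whose called length changed much. The pairs are a minority of the 107516 and 94807 islands, and their narrower spread is set in part by the choice. The median log2 ratio of the pairs was -0.044 (-0.051 to -0.038), with an SD of 0.28 against 0.65 for the summed reads of shared regions. The sign of this small median turned with the overlap asked for: it was -0.071 in the 817 pairs with equal coordinates and 0.017 at 50% overlap. Of the 9201 pairs with at least 50 reads, 131 (1.42%) were at least 1.5-fold higher at 7 days and 283 (3.08%) at least 1.5-fold lower. At 2-fold these numbers were 4 and 8.

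**Figure D3:**
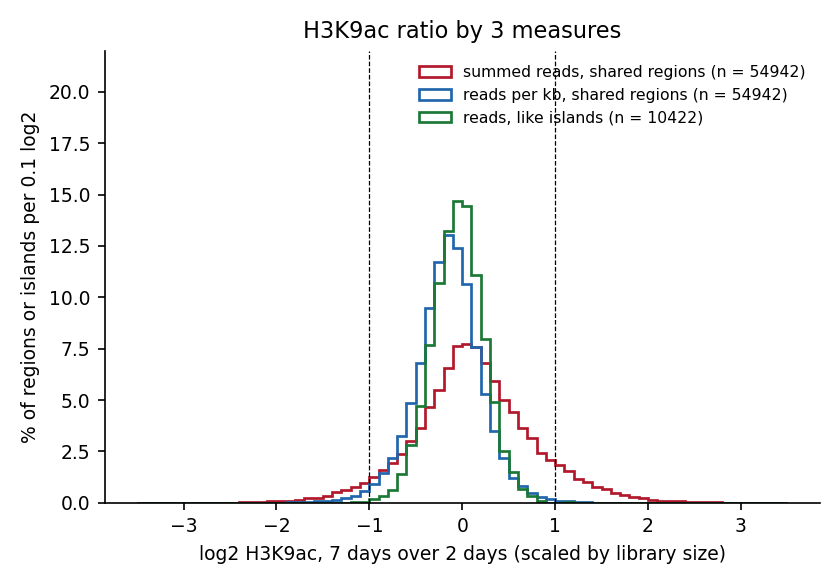
Distribution of the log2 ratio of H3K9ac at 7 days over 2 days by 3 measures (summed reads and reads per kb in 54942 shared regions, reads in 10422 like islands), as the percent of regions or islands per bin of the log2 ratio, with dashed lines at 2-fold. Summed reads have the broadest curve, with SD 0.65, while reads per kb (SD 0.36) and like islands (SD 0.28) are narrow with medians below 0.

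From a mean of 50 reads upwards, like islands with more reads differed less. The SD of their log2 ratio was 0.30 in 1740 pairs under 50 reads, of which 4.83% were beyond 1.5-fold. It was 0.32 in 4066 pairs with 50 to 100, of which 7.23% were. Counting alone would give about 0.32 and 0.25, so the pairs under 50 reads varied less than counting alone gives. The SD was 0.25 in 2967 pairs with a mean of 100 to 200 reads, 0.19 in 1542 pairs with 200 to 500 and 0.15 in 107 pairs with 500 or more. There counting alone would give about 0.18, 0.12 and 0.082. No pair with 500 or more reads was beyond 1.5-fold, and 1 of those with 200 to 500 was. With a mean of at least 100 reads, the spread beyond counting was 0.17 between 7 days and 2 days (4616 pairs). It was 0.18 between 2 days and no doxycycline (3346 pairs) and 0.19 between 7 days and no doxycycline (3906 pairs). These 3 comparisons share libraries, and with 1 library each the spread between replicate libraries of one condition is not known. For H3K27ac at 7 days over 2 days it was 0.38 (4359 pairs), where library size fell to 0.474 times, and for H4K16ac it was 0.19 (2140 pairs), where it grew 2.55 times.

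The like island with the largest increase, ranked by the interval bound nearest to 0, lay in 17q11.2 (chromosome 17, 27948601 to 27951000). It held 43 reads at 2 days and 104 at 7 days, a log2 ratio of 1.05 (0.52 to 1.60), and had no island without doxycycline. The next 4 lay in 6p21.1 (chromosome 6, 41932401 to 41936600; 65 and 136 reads), 15q23 (48 and 105), 6q23.2 (70 and 140) and 19q13.32 (54 and 112). The log2 ratios of all 5 ran from 0.77 to 1.05, and per kb from 0.51 to 0.78. Like islands cover at least 80% of each other, so at such ratios the sign per kb was fixed by the choice of pairs. H3K27ac islands lay in all 5 regions at both times, and their reads were counted over whole islands, which can reach past the region. Scaled H3K27ac reads were higher at 7 days in 17q11.2 (32.1 and 72.4), 6q23.2 (22.2 and 44.3) and 19q13.32 (19.4 and 46.3). They were nearly even in 6p21.1 (49.6 and 50.3) and lower in 15q23 (33.4 and 16.8). Per kb of H3K27ac island the directions differed in part. Then 6p21.1 was lower at 7 days (17.7 and 11.4), and 15q23 was higher (16.7 and 21.0, the latter from 25 reads). In 17q11.2 the values were close (8.45 and 9.05), while 6q23.2 (7.94 and 14.8) and 19q13.32 (9.69 and 12.2) stayed higher.

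The like island with the largest decrease lay in 17q11.1 (chromosome 17, 25711201 to 25712800), the band beside the centromere whose 1 protein-coding gene in the RefSeq table is WSB1, a substrate receptor of a ubiquitin ligase. Over the same 1600 bp it held 105 reads at 2 days and 55 at 7 days, a log2 ratio of -1.16 (-1.66 to -0.68), and 58 reads over 1400 bp without doxycycline. Scaled to library size these are 25.2, 11.3 and 19, so the 2-day value was the highest of the 3. The next 4 lay in 1p22.1 (chromosome 1, 93409001 to 93413800; 135 and 77 reads), 2q11.2 (176 and 107), 1q42.2 (177 and 109) and 10q26.13 (132 and 78). Per kb the log2 ratios of all 5 ran from -1.16 to -0.62, a sign again fixed by the choice of pairs. H3K27ac had no island at 7 days in the 1p22.1 and 10q26.13 regions, where it had 419 and 54 reads at 2 days, and in 17q11.1 its scaled reads were 204.0 and 219.3. They were 194.8 and 200.5 in 2q11.2 and 32.1 and 71.7 in 1q42.2, so H3K27ac did not move one way in these 5 regions.

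The largest increases in summed reads were regions with a short 2-day island inside a long 7-day one. In 4p15.33 (chromosome 4, 13606201 to 13616800) the 2-day list had 20 reads in an island of 600 bp and the 7-day list 239 in one of 10600 bp, a log2 ratio of 3.35 (2.69 to 4.09). Per kb this region was lower at 7 days, with a log2 ratio of -0.79, and without doxycycline it held 144 reads over 9600 bp. Its band holds the 4 protein-coding genes BOD1L1, HS3ST1, NKX3-2 and RAB28 in the RefSeq table, and which of them lies at the region was not examined. Without doxycycline, then, the island was nearly as long as at 7 days. The other 4 lay in 2p13.1 (26 and 283 reads), 10q25.2 (21 and 222), 14q22.3 (39 and 350) and 1q42.13 (31 and 268). Their 2-day islands spanned 600 to 1800 bp and their 7-day islands 9600 to 12600 bp, and all had an island without doxycycline, with 70 to 217 reads. Of the 5, 2 were higher per kb.

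The largest decreases in summed reads had the opposite layout. In 2p21 (chromosome 2, 44194201 to 44208800) the 2-day list held 336 reads over 14000 bp and the 7-day list 49 reads over 2000 bp, a log2 ratio of -3.01 (-3.47 to -2.57), with -0.20 per kb. The list without doxycycline held 148 reads over 9800 bp there. The next were 6p21.1 (chromosome 6, 42368601 to 42380000; 256 and 38 reads), 2p24.1 (257 and 43), 16p12.1 (177 and 28) and 17q21.31 (192 and 32). Per kb, 4 of the 5 were lower, with -0.66 in 2p24.1, and 16p12.1 was higher at 0.76. At the 2p24.1 region, 12.2 kb wide, scaled H3K27ac reads were lower too, with 97.9 at 2 days and 34.9 at 7 days (13.6 and 11.6 per kb). Summed H4K16ac reads were higher, with 8.10 over 0.8 kb and 262 over 48.2 kb, but lower per kb (10.1 and 5.44). These are reads of whole islands, which at 7 days reach far past the region for H4K16ac. In the other 4 regions scaled H3K27ac reads were higher at 7 days, with 102.9 and 117.3 in 6p21.1 and no 2-day island against 43.6 in 17q21.31. Per kb of H3K27ac island, 6p21.1 was lower at 7 days (17.2 and 10.3).

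Few regions moved the same way by both measures. With at least 50 reads, 44 of the 4919 higher regions were also at least 1.5-fold higher per kb. Of the 2286 lower regions, 93 were at least 1.5-fold lower per kb. Among the 47737 regions within 2-fold these numbers were 869 and 4099, both larger shares. With at least 100 reads in either library, 17 of 2954 regions that were at least 2-fold higher in sum were also at least 1.5-fold higher per kb, and 47 of 1129 lower regions were also lower per kb by that factor. The first of each, chosen after their values were seen, lay in 2p25.1 (chromosome 2, 9936201 to 9942400) and again in 2p24.1 (chromosome 2, 20128201 to 20140400). The 2p25.1 region held 44 reads in 2600 bp at 2 days and 166 in 4600 bp at 7 days, with log2 ratios of 1.69 (1.20 to 2.20) in sum and 0.87 per kb. Its scaled reads were 10.6 at 2 days, 34.0 at 7 days and 33.1 without doxycycline, so the 2-day library was the low one. Its scaled H3K27ac reads were 113.4 at 2 days and 166.3 at 7 days. The 2p24.1 region held 257 reads over 10600 bp and 43 over 2400 bp, and its scaled reads were 61.6, 8.80 and, without doxycycline, 10.8, so the 2-day library was the high one.

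The strongest regions absent from a list were broad and were present without doxycycline. The 2-day region with the most reads and no 7-day island lay in 6q25.3 (chromosome 6, 157288801 to 157304800) and held 327 reads over 16 kb. The 7-day region with the most reads and no 2-day island lay in 8p22 (chromosome 8, 17103001 to 17116400) and held 332 reads over 13.4 kb. These 2 had 198 and 146 reads in the list without doxycycline. The 5 regions in each direction held 220 to 327 reads and 270 to 332 reads, spanned 9.6 to 16 kb and 9.6 to 14.2 kb, and all had islands without doxycycline. Ranking by reads favours broad regions. Over all missing regions with at least 100 reads predicted, an island without doxycycline was present in 66.2% (no 7-day island) and 68.2% (no 2-day island). In shared regions with at least 100 reads in either library this share was 93.4%. The third of the 7-day regions lay in 7q32.3 (chromosome 7, 131143001 to 131156200; 282 reads), a band whose 3 protein-coding genes are MKLN1, PLXNA4, a receptor for semaphorins, and PODXL, a cell-surface sialomucin.

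The regions with the most H3K9ac reads differed little between the 2 times. The strongest lay in 2p22.2 (chromosome 2, 36572201 to 36697000) and spanned 124.8 kb, with 3954 reads at 2 days and 4781 at 7 days. Its log2 ratio was 0.047 (-0.014 to 0.108), and 6 islands at 2 days stood against 3 at 7 days. The band's 16 protein-coding genes include CRIM1, a membrane protein that binds bone morphogenetic proteins, and STRN and FEZ2. The second, in 17p13.2 (chromosome 17, 5302601 to 5391600), held 2634 and 3115 reads, a log2 ratio of 0.015 (-0.061 to 0.090). The third, in 17p13.1 (chromosome 17, 7752001 to 7820600), held 2311 and 2970 reads, with a ratio of 0.13 (0.056 to 0.21). The remaining 2, in 15q26.1 and 17p11.2, had ratios of -0.099 (-0.194 to -0.003) and -0.11 (-0.21 to -0.014). These intervals cover counting only, and all 5 ratios lay within the SD of 0.15 seen among like islands of 500 or more reads.

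Differences past 2-fold were more frequent where H3K27ac was absent. Of 32802 regions with an H3K27ac island at both times, 5.75% were higher and 3.15% lower. Of 13060 with no H3K27ac island at either time, 14.4% were higher and 5.67% lower. The latter were also weaker, with median reads of 57 at 2 days and 75 at 7 days against 105 and 129, and their scaled reads per kb were 4.84 and 4.3 against 6.42 and 5.82. The part of read number in this difference was not tested. Regions with H4K16ac at both times and no H3K27ac (9772) had a median log2 ratio of 0.19, against 0.053 in the 19128 with both marks at both times. With an H3K9ac island without doxycycline (45722 regions) 7.95% were higher and 3.87% lower, and without one (9220) 13.9% and 5.62%.

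Most of the regions that differed also had an island without doxycycline, but less often than the regions within 2-fold, of which 84.5% had one. The levels below are only of regions with such an island, since reads outside islands are not listed. Of the 4919 higher regions, 3637 (73.9%) had an island without doxycycline, with median scaled reads of 20.0, against 8.87 at 2 days and 23.9 at 7 days. Of the 2286 lower regions, 1768 (77.3%) had one, with 20.7, against 25.2 and 9.62. Its value was between the other two in 58.2% of the former and 58.9% of the latter, and in 23% of regions within 2-fold. A wider gap between the 2 times leaves more room between them, so these shares are descriptions. The median island length without doxycycline was 3800 bp in both groups. HRP reads per kb of island in the higher regions were 1.5 at 2 days and 1.99 at 7 days, and in the lower regions 2.04 and 1.59.

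The ratios of H3K27ac and H4K16ac differed little between higher and lower H3K9ac regions. Of the higher H3K9ac regions 1887 had H3K27ac islands at both times, with a median H3K27ac log2 ratio of -0.22 (-0.26 to -0.16). The 1032 such lower regions gave -0.26 (-0.30 to -0.19), and the 29883 within 2-fold gave -0.088 (-0.097 to -0.079). For H4K16ac the medians were 0.77 (0.73 to 0.82) in 3234 higher regions, 0.79 (0.74 to 0.86) in 1499 lower ones and 0.69 (0.68 to 0.70) in 30730 within 2-fold. For both marks the intervals of the higher and lower regions overlap, while that of the regions within 2-fold lies apart from both. Across regions, Pearson's r between the H3K9ac ratio and that of the other mark was -0.002 for H3K27ac (n = 32802) and -0.005 for H4K16ac (n = 35463). The libraries of the other marks were of unequal size at the 2 times, 0.474 and 2.55 times at 7 days, and all were called against the same HRP library. The level of each mark's own median is therefore not read here.

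**Figure D4:**
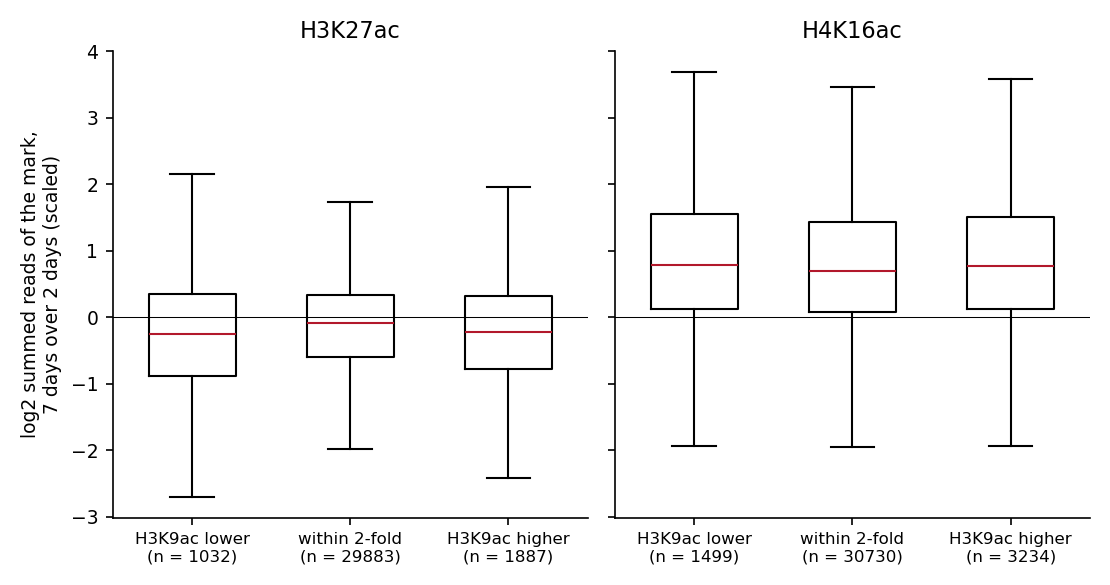
Log2 ratio of scaled reads at 7 days over 2 days of H3K27ac (left) and H4K16ac (right) in H3K9ac regions that were at least 2-fold lower, within 2-fold or at least 2-fold higher, where the other mark had an island at both times. Boxes are quartiles with the median in red, and whiskers reach the last value within 1.5 box lengths; the medians of the lower and higher groups are close, at -0.26 and -0.22 for H3K27ac and 0.79 and 0.77 for H4K16ac.

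Along the chromosomes, the share of H3K9ac reads at 7 days was larger in gene-poor, dark-staining bands. Giemsa stain darkens the gene-poor, late-replicating bands, and unstained bands hold most genes. The darkest bands held 8.23% of H3K9ac island reads at 2 days and 8.83% at 7 days, with 8.69% without doxycycline. Unstained bands held 56.8%, 56.2% and 55.8%. The covered length grew 1.25 times in the darkest and 1.13 times in the unstained bands, and 11.5% of shared regions were higher in the former against 8.62% in the latter. Like islands showed little of this, with medians of -0.027 in 794 pairs of the darkest and -0.049 in 5884 pairs of the unstained bands. The islands of the darkest bands were fewer at 7 days, 9645 against 10202 at 2 days, while their covered length was larger. Regions called at 7 days only were 3930 and those at 2 days only 4065 there, a ratio of 0.967. In the unstained bands these numbers were 12789 and 16738, a ratio of 0.764.

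Over the 701 bands with at least 1000 reads in both lists, the log2 ratio of the share had an SD of 0.13 and ran from -0.50 to 0.65, where counting would give a median SD of 0.020. It correlated with protein-coding genes per Mb at r = -0.36 (Spearman rho -0.33), with the change in called length at 0.97 and with the change in reads per kb at -0.45, as descriptions over bands of the same 2 libraries. In the 175 bands with the fewest genes per Mb the share was 14.9% at 2 days, 15.5% at 7 days and 15.7% without doxycycline, and it was larger at 7 days in 110 of them. In the 176 with the most genes it was 35.9%, 34.9% and 34.0%, and larger at 7 days in 52. The 2-day library thus had the smallest share in gene-poor bands of the 3. By the log2 ratio of the share, chromosome 13 had the largest gain (0.14, 1.36% to 1.5% of reads, 2.96 genes per Mb) and 19 the largest loss (-0.081, 1.70% to 1.60%, 24.8 genes per Mb). In percentage points chromosome 4 gained more (5.38% to 5.63%), and chromosomes 10 (5.64% to 5.44%) and 17 (5.54% to 5.38%) lost more.

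**Figure D5:**
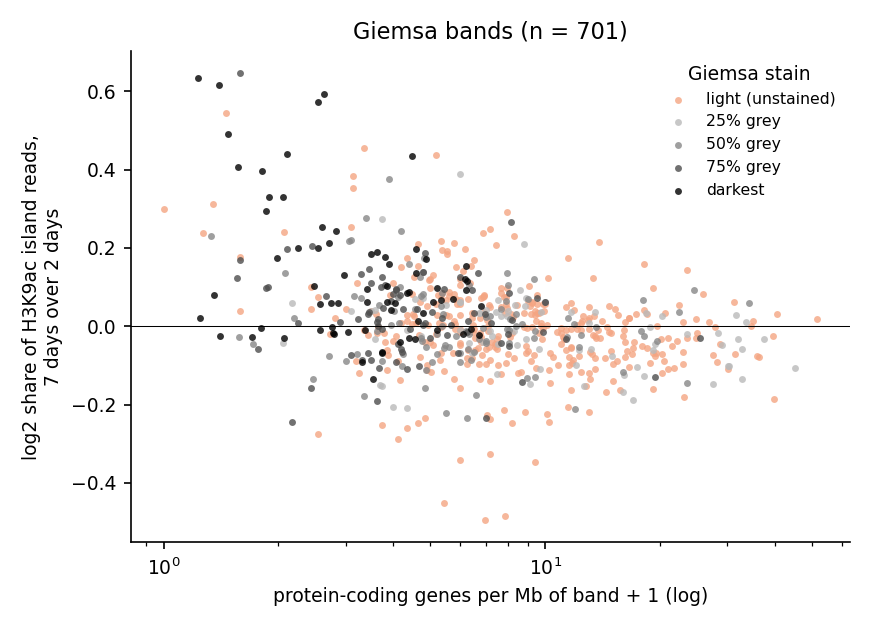
Log2 ratio of each band's share of H3K9ac island reads at 7 days over 2 days (y) against protein-coding genes per Mb plus 1 (x, log axis) for 701 Giemsa bands, coloured by stain. The highest values, up to 0.65, are mostly dark bands with few genes, and the bands with many genes lie near or below 0.

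The 5 bands with the largest gain were all dark. In 13q21.31, with 2 protein-coding genes known only by locus numbers, reads went from 3110 to 5890 and the log2 ratio of its share was 0.65 (0.58 to 0.71). In 5p14.1, whose 1 protein-coding gene is CDH9, a calcium-dependent adhesion protein, they went from 2109 to 3958 (0.63). In 13q31.3, the band of the glypican genes GPC5 and GPC6, they went from 4212 to 7817 (0.62). All of these more than kept pace with library size. In 14q31.1, the band of the synaptic adhesion gene NRXN3, the thyrotropin receptor gene TSHR and the deiodinase gene DIO2 among 7, they went from 2248 to 4100 (0.59). In 6q12, with ADGRB3 and EYS among 10 genes, they went from 1329 to 2390 (0.57). Called length rose from 160.6 to 289.8 kb in 13q21.31 and from 106.4 to 199.2 kb in 5p14.1, while scaled reads per kb were lower at 7 days, at 4.16 against 4.64 and 4.07 against 4.75. All 5 bands were lower per kb, with log2 ratios between -0.28 and -0.16. In 13q21.31 there were 65 regions called at 7 days only, 40 at 2 days only and 29 shared. Of its 23 shared regions with at least 50 reads, 3 were higher and 1 lower. HRP reads per kb there were 1.56 and 1.68.

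The other marks did not share these gains. The log2 ratio of the H3K27ac share was -0.22 in 13q21.31, -0.27 in 5p14.1, -0.34 in 13q31.3, 0.014 in 14q31.1 and 0.11 in 6q12. For H4K16ac it was 0.006, 0.014, -0.070, -0.064 and -0.47. Over bands with at least 1000 reads in both lists of the other mark, the correlation of its share ratio with that of H3K9ac was -0.35 for H3K27ac (669 bands) and -0.24 for H4K16ac (673 bands). With genes per Mb, the H3K27ac ratio correlated at 0.58 and the H4K16ac ratio at 0.41. The direction along the chromosomes was thus opposite to that of H3K9ac, in libraries whose sizes changed by 0.474 and 2.55 times.

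The 5 bands with the largest loss were all unstained, and 13q12.11, 7q11.21 and 10q11.23 of them lie close to a centromere. Reads went from 1410 to 1210 in 13q12.11 (log2 ratio of the share -0.50, -0.61 to -0.38) and from 3654 to 3158 in 7q11.21 (-0.48). They went from 1824 to 1614 in 6q23.1 (-0.45), the band of L3MBTL3, a reader of methylated histones, with SAMD3, SMLR1 and TMEM200A. The remaining 2 were 10q11.23 (4399 and 4185, -0.35) and 19q13.13 (1629 and 1555, -0.34), the band of SIPA1L3 and WDR87. In all 5 more regions were called at 2 days only than at 7 days only, with 20 and 9 in 13q12.11 and 35 and 10 in 10q11.23. Over all bands the numbers were 32523 and 26115, in the same direction. The 7 to 29 shared regions of each with at least 50 reads were close to even, with median log2 ratios between -0.083 and 0.052.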

How the data were processed

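The submitters' processing notes name build hg19 and, among other tools, Bowtie2 2.3.5.1, Picard and SICER. Settings and duplicate handling: not given in the sources used here. Per the file headers, each deposited list holds whole-number counts of antibody and HRP reads per island. The deposited p-value and FDR (at most 0.0498) are the authors' and were used only as a filter. The authors' log2 fold is log2 of antibody over HRP reads minus a constant that is the same for a whole list, and the constant gave the relative library size. Islands without an HRP read had 0.25 in its place. The deposited score is 100 times the log2 fold and was not used further.

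Islands of chromosomes 1 to 22 were merged, and 817 of 817 islands with equal coordinates had equal HRP counts. No island passed the end of an hg19 chromosome, while islands on 12 of 22 passed the hg38 end. Intervals are 95% Clopper-Pearson or order-statistic intervals. They cover counting only, and reads copied by PCR, with no molecular identifiers, are not independent. Depth is known only relative to the HRP library. Bands came from circlize 0.4.16. Genes were assigned to bands of the same name on GRCh38.p14 (RefSeq), and no coordinates were converted, so no sequence is given. Bands and stains were assigned by midpoint. Regions were ranked by the interval bound nearest to 0 among those with at least 100 reads in either library (5 each way). The members, lists and rules were chosen with earlier results of these data known. Ratios were tested on simulated data in which both libraries had the same islands. That simulation could not check the merging of differing islands, or ratios where called length changed. Python 3.11.15 and R 4.3.3 were used.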

Additional observations from a re-analysis of the deposited data

Results flagged for a closer look

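Chromosome X was not part of the comparison, and its lists also hold islands. Islands are called as enriched over HRP, so a fold above 1 is fixed by the calling. The authors' fold over HRP had a median of 4.19 in 805 islands at 2 days and 3.81 in 729 islands at 7 days, against 3.36 and 2.87 on chromosomes 1 to 22. The median log2 ratio of summed reads at 7 days over 2 days was 0.10 for H3K9ac and -0.098 for H3K27ac, which are of opposite sign. Both signs turned per kb of island (-0.14 and 0.29) and over like islands (-0.044 and 0.14). The median ratio of called length was 1.17 for H3K9ac and 0.778 for H3K27ac. The difference between the marks was not tested, and each value rests on 1 library a side. Library size was 1.17 times as large at 7 days for H3K9ac and 0.474 times for H3K27ac.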

How the results depend on the processing

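The median log2 ratio of shared regions, 0.10, was 0.053 when scaled by the reads in islands, 0.083 with no minimum of reads, 0.085 with at least 200 reads and 0.086 with islands merged across gaps of at most 2 kb. It turned to -0.077 with uncalled stretches filled. The shares at least 2-fold higher and lower were 8.04% and 4.75% when scaled by the reads in islands, 7.11% and 5.42% relative to the median, 8.12% and 3.77% with no minimum, 4.38% and 1.02% with at least 200 reads, 9.67% and 5.65% across 2-kb gaps, 9.64% and 4.46% at an FDR of at most 1e-05, and 0.0055% and 0.0091% with stretches filled. The fill gives both libraries a similar reading wherever only 1 had a call; the cause of the change in sign was not tested.

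The like-island median of -0.044 was -0.091 when scaled by the reads in islands, -0.071 with equal coordinates and turned to 0.017 at 50% overlap, and the cause was not tested. Islands with a partner were 60.5% at 2 days and 55.2% at 7 days when 50% of the island had to overlap, and 67.5% and 69.8% at an FDR of at most 1e-05. Regions with no island in the other list were 19.8% (no 7-day island) and 16.4% (no 2-day island) with at least 50 reads predicted, and 0.284% and 0.166% with at least 200. The SD over bands was 0.094 with at least 5000 reads. The median of the other mark in higher less lower H3K9ac regions was 0.041 for H3K27ac and -0.016 for H4K16ac. Over like islands past 1.5-fold it was 0.12 for H3K27ac (-0.12 to 0.36, 85 higher and 159 lower). For H4K16ac it was -0.39 there (-0.79 to 0.016, 60 and 166), and both intervals hold values of either sign. Including chromosome X changed the median and both shares by less than their intervals. Filling and chromosome X were chosen after the data were seen. No paired analysis was possible because each mark and time has 1 library with no replicate number, and for the same reason no replicate could be left out.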
